A study of Homo sapiens with 6 samples.

Results

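The FKBP genes described here are 10 prolyl isomerase genes around FKBP1A, among 26613 genes with at least 1 count, in human 293T cells given a miR-941 mimic or a scrambled oligonucleotide. They were taken by name from the count tables: FKBP1A, FKBP1B, FKBP1C, FKBP2, FKBP3, FKBP4, FKBP5, FKBP8, FKBP10 and FKBP15. All 10 passed the filter on low counts, as did 15607 genes in all. The family was selected on the change of FKBP1A and its relatives between these same mimic and mock libraries. The differences between the groups are therefore given for these 10 genes as a description, without p-values.

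293T cells descend from human embryonic kidney cells and take up nucleic acids well. The mimic group was 3 cultures transfected with a miR-941 duplex at 10 nM using Lipofectamine 2000. The mock group was 3 cultures that received a scrambled oligonucleotide, for which no concentration was recorded, so whether the doses matched is not known. Both groups were plated 24 h before transfection, and the labels call the transfections independent. After removal of ribosomal RNA, libraries were sequenced as single reads of 100 bases, giving 6079420 to 7651046 counts per library. The tables hold human genes only, and the viral genes that mark this line were not analysed here. In bulk RNA, fewer expressing cells and less RNA per cell cannot be told apart.

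FKBP proteins turn the peptide bond before proline between its cis and trans forms, and several of them act as chaperones or scaffolds. FKBP1A is the small cytosolic member that binds the drugs FK506 and rapamycin; the drug complexes then block calcineurin and mTOR. Without drug, FKBP1A binds calcium release channels and type I receptors of the TGF-beta family. A microRNA mimic loads a strand onto Argonaute, which lowers mRNAs that pair with the seed, bases 2 to 8 of that strand.

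The sequences below show the mimic strand beside the part of FKBP1A with which it could pair over the longest unbroken run, and the same place in its near copy FKBP1C. The mature miR-941 strand, from 5 annotated hairpins on chromosome 20 in RefSeq (GRCh38.p14), is 23 bases long, with its seed in capitals. The FKBP1A stretch, chr20:1370022-1370051 on the minus strand (GRCh38), lies in the 3′ UTR in exon 5 of 5, and its run starts at base 67 of that UTR. The capitals mark the 11 bases complementary to bases 11 to 21 of miR-941, and in the FKBP1C line the aligned bases.
hsa-miR-941: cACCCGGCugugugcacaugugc
FKBP1A: tgcctccagACATGTGCACAtgaatccata
FKBP1C: tgcctccagACGTGTGCACAtaaatccata
Counted from 1 at the 5′ end of the stretch, FKBP1C differed from FKBP1A by A12G, inside the run, and by G22A, after it.

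No transcript of any of the 10 genes held GCCGGGT, the complement of the seed, in the sense strand. The same 7 letters occurred somewhere in a transcript of 21.5% of 13067 tested protein-coding genes, and in the longest 3′ UTR of 4.87%. FKBP1A, FKBP1B, FKBP1C, FKBP4, FKBP5, FKBP10 and FKBP15 also lacked the 6-letter match CCGGGT (bases 2 to 7) in every annotated transcript, whereas 51.7% of tested genes held it. The forms GCCGGGTA and CCGGGTA, which end in a further A, were also searched and were found in no member. The offset match GCCGGG (bases 3 to 8) was found in the coding sequences of FKBP4, FKBP8 and FKBP10. It also lay in the 3′ UTR of FKBP5 and in 5′ UTRs of FKBP1B, FKBP2 and FKBP8. No other seed matches were searched, and a missing match says nothing further about binding.

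Of the 6-letter matches, only those to CCGGGT are shown here. FKBP8 held 1 in its 3′ UTR (chr19:18532057-18532062, minus strand) and FKBP2 held 1 in its coding sequence (chr11:64242405-64242410, plus strand), both in GRCh38 with the match in capitals. The match in FKBP3 lay in a transcript not annotated as protein-coding.
FKBP8: gccccctcctCCGGGTtaggggagcaagga
FKBP2: tgagctggttCCGGGTcctgacagtactgt
In 3′ UTRs, CCGGGT occurred in 13.4% of tested genes.

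The search for unbroken runs was not among the comparisons planned in advance. The 11-base run in FKBP1A was longer than that of most genes. A run at least as long was found in 2.6% of 15084 tested genes with a transcript sequence, where the median longest run was 8 bases. The run lies in 7 of 11 FKBP1A transcripts. The other members had longest runs of 7 to 9 bases. FKBP1C had 8, and 62.4% of the 15084 genes held a run at least that long. The letters ACATGTGCACA were also present in 100 other tested genes, counted in any part of any transcript and not only in 3′ UTRs. Of these genes 6 fell and 5 rose, and their median log2 fold change was −0.016. Over all 15084 genes 6.30% fell and 6.88% rose, with a median of 0.001.

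FKBP1A was lower in every mimic library than in any mock library. Its level was 59.7, 62.3 and 60.1 CPM (counts scaled to library size with TMM factors) in the mimic libraries and 227, 224 and 230 CPM in the mock libraries. The groups lay far apart and each was tight. The means were 60.7 ± 1.38 and 227 ± 3.23 CPM (SD, n = 3), so that 26.8% of the mock level was left. The difference of −166 CPM was the largest loss of level among the 15607 tested genes, from a gene that ranked 675 in the mock group. The fitted log2 fold change was −1.90 ± 0.06 (SE), and it lay between −1.92 and −1.89 over 14 other settings of scaling, filter, test and left-out library. The gene lies on chromosome 20 (1368978 to 1393172, minus strand, GRCh38). Its exons overlap 187 bases of the antisense gene SDCBP2-AS1, counted at 3.64% of its level, with a log2 fold change of 0.14 ± 0.21. On the same strand they overlap AL136531.2 over 183 bases and MIR6869 over 62 bases. Neither of these had a count in any library.

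FKBP1C, annotated in GENCODE release 29 as a protein-coding gene without introns on chromosome 6 (63211446 to 63213024), is a near copy of FKBP1A. Its coding sequence matched that of FKBP1A at 321 of 327 bases, and the whole transcripts at 97.1% of 1562 aligned bases. FKBP1C had 23, 41 and 27 counts in the mimic libraries and 132, 130 and 118 in the mock libraries. The groups did not overlap, and the mimic libraries differed among themselves more than the mock libraries did. The means were 4.34 ± 1.35 and 18.4 ± 0.787 CPM, a log2 fold change of −2.09 ± 0.16.

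Reads of the 2 genes may have been exchanged, so the value of FKBP1C is uncertain. Of the 1480 stretches of 100 bases, the read length, in the FKBP1C transcript, 201 (13.6%) also occur in FKBP1A. FKBP1C counts were 5.08%, 9.19% and 7.07% of FKBP1A counts in the mimic libraries and 7.88%, 8.08% and 8.41% in the mock libraries. The mock percentages thus lay within the range of the mimic ones. With the counts of both genes summed, the log2 fold change was −1.91. How much of the FKBP1C change belongs to FKBP1C was not tested.

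FKBP1B, the paralog best known for binding the ryanodine receptor of heart muscle, has a coding sequence that matched FKBP1A at 74.9% of 327 bases. Its level was 14.4, 13.7 and 12.1 CPM in the mimic libraries and 17.6, 15.7 and 14.4 CPM in the mock libraries. The highest mimic library lay just under the lowest mock library, and both round to 14.4 CPM. The log2 fold change of −0.25 ± 0.13 did not pass the threshold used for all genes. Exons of FKBP1B overlap those of MFSD2B on the same strand over 464 bases, 27.7% of its exon length, and MFSD2B was counted at 60.3% of its level with a log2 fold change of −0.26 ± 0.16.

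**Figure D1:**
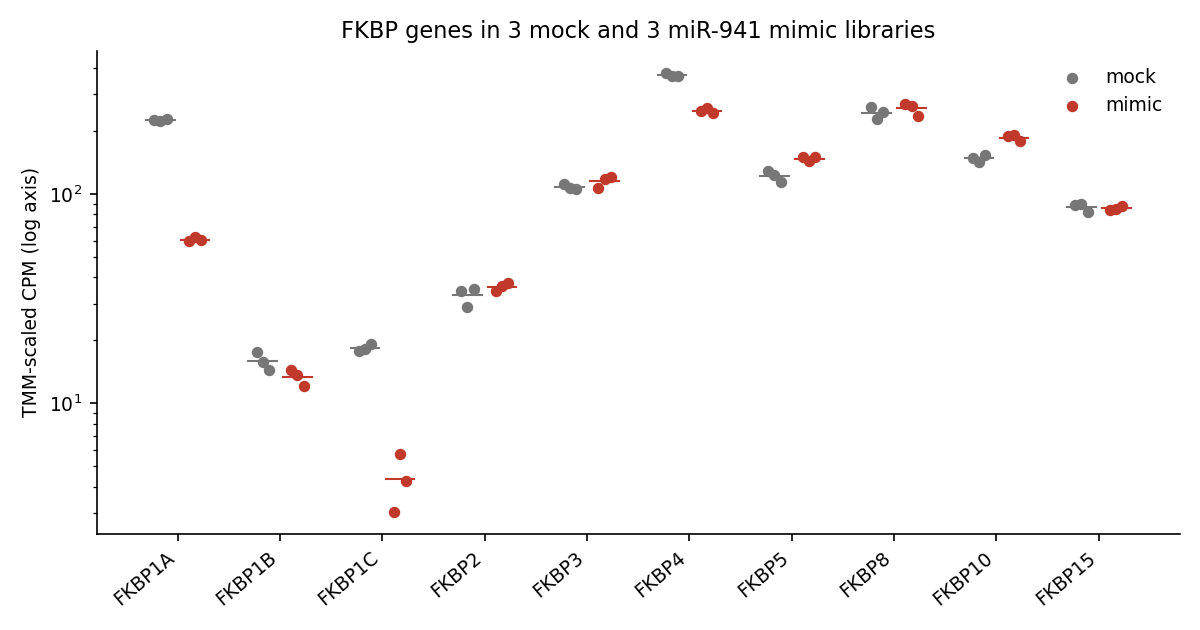
Level of each FKBP gene in 3 mock (grey) and 3 mimic (red) libraries, as TMM-scaled CPM on a log axis; points are libraries and lines are group means. FKBP1A and FKBP1C stand out, with mimic means of 60.7 and 4.34 CPM below mock means of 227 and 18.4 CPM, while FKBP4, FKBP5 and FKBP10 show smaller gaps.

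Of the 10 genes, 5 passed an adjusted p of 0.05 in edgeR's quasi-likelihood test: FKBP1A, FKBP1C and FKBP4 fell, and FKBP5 and FKBP10 rose. Over all tested genes 13.0% passed, 6.19% lower and 6.80% higher in the mimic group. The mimic and mock libraries did not overlap in 6 of the 10, against 28.3% of all genes. Since this comparison was used to choose the family, nothing is read from these counts. The median log2 fold change was 0.02 over the 10 genes and 0.00 over all.

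The HSP90 co-chaperones FKBP4 and FKBP5 moved in opposite directions. Both carry a tetratricopeptide domain that docks on HSP90, and in steroid receptor complexes FKBP4 favours receptor activity while FKBP5 restrains it. FKBP4 had 251, 259 and 244 CPM in the mimic libraries and 381, 369 and 368 CPM in the mock libraries. No mimic library reached the lowest mock library. The mean fell to 251 ± 7.38 from 373 ± 7.62 CPM, a log2 fold change of −0.57 ± 0.05. In CPM lost, FKBP4 ranked 9 of 15607 genes.

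FKBP5 is itself induced by glucocorticoids. It had 150, 144 and 150 CPM in the mimic libraries and 129, 124 and 115 CPM in the mock libraries, again without overlap. Its mean rose to 148 ± 3.71 from 123 ± 6.93 CPM, a log2 fold change of 0.27 ± 0.05. The ratio of FKBP4 to FKBP5 counts was 1.67, 1.80 and 1.63 in the mimic libraries and 2.96, 2.98 and 3.19 in the mock libraries. The ratio was thus lower in every mimic library.

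The members of the endoplasmic reticulum are FKBP10, a chaperone of collagen, and FKBP2. FKBP10 had 190, 191 and 179 CPM in the mimic libraries and 149, 142 and 154 CPM in the mock libraries. Its groups did not overlap. The mean rose to 187 ± 6.50 from 148 ± 6.03 CPM, a log2 fold change of 0.33 ± 0.05. FKBP2 had 34.4, 36.3 and 37.5 CPM against 34.5, 28.9 and 35.2 CPM, with overlapping groups and a log2 fold change of 0.14 ± 0.09.

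The remaining members act in the nucleus, on mitochondria and on endosomes, and none of the 3 passed. FKBP3, a nuclear DNA- and RNA-binding member, had 107, 118 and 121 CPM in the mimic libraries and 112, 107 and 106 CPM in the mock libraries. The groups overlapped, with a log2 fold change of 0.09 ± 0.06. Its exons overlap 653 bases of PRPF39 on the opposite strand, which was counted at 84.0% of its level and had a log2 fold change of 0.05 ± 0.06. FKBP8, an anchored protein of the mitochondrial outer membrane that binds BCL2, had 271, 265 and 236 CPM against 260, 229 and 247 CPM. These groups overlapped as well, and the log2 fold change was 0.07 ± 0.05. FKBP15, an actin-associated protein of early endosomes, had 83.6, 85.2 and 87.7 CPM against 88.7, 89.4 and 81.8 CPM, a log2 fold change of −0.02 ± 0.06. Exons of SLC31A2 on the opposite strand cover 14.3% of its exon length, and SLC31A2 was counted at 10.3% of its level (−0.22 ± 0.16).

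**Figure D2:**
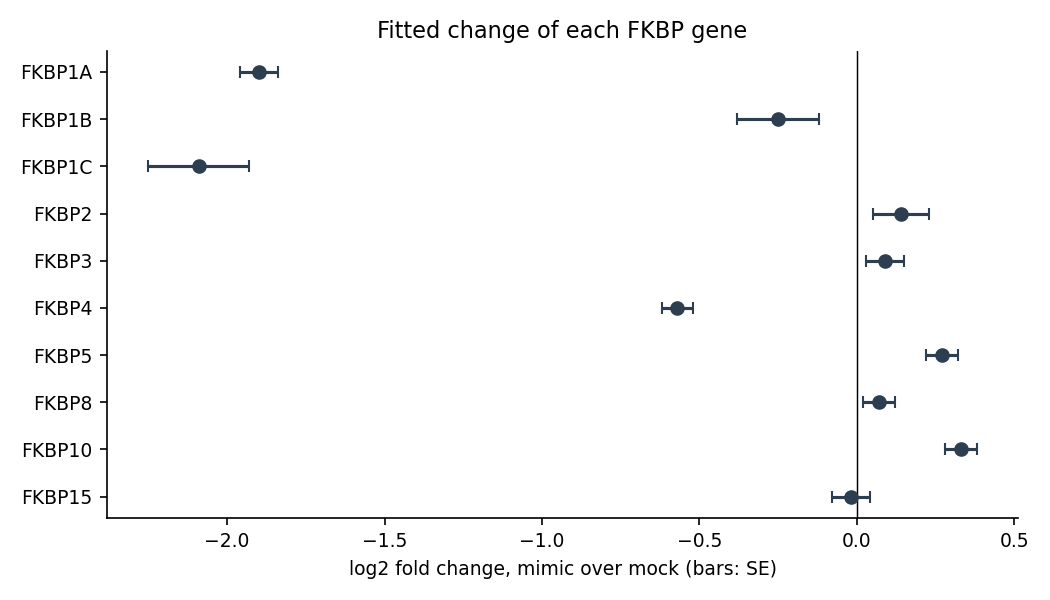
Fitted log2 fold change of each FKBP gene, mimic over mock, with standard errors as bars. FKBP1A (−1.90) and FKBP1C (−2.09) lie apart at the left, FKBP4 follows at −0.57, and FKBP10 is the highest at 0.33.

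Levels of different genes were compared as CPM per kb of merged exons. In the mock group FKBP1A was highest with 88.1 ± 1.25 CPM per kb, followed by FKBP8 with 84.6 ± 5.28, and the 2 did not differ beyond their spread. FKBP4 followed with 71.9 ± 1.47, FKBP3 with 47.9 ± 1.62, FKBP10 with 34.7 ± 1.41 and FKBP2 with 20.4 ± 2.14 CPM per kb. FKBP1C, FKBP5, FKBP1B and FKBP15 came last, with 7.83 to 11.7 CPM per kb, and FKBP1C and FKBP5 did not differ beyond their spread.

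In the mimic group FKBP1A held place 5 of the 10, with 23.6 ± 0.537 CPM per kb, just above FKBP2 with 22.4 ± 0.956, a gap within their spread. FKBP8 was now highest with 88.7 ± 6.39, followed by FKBP3 with 51.0 ± 3.37 and FKBP4 with 48.5 ± 1.42, which did not differ beyond their spread. FKBP10 held 43.7 ± 1.52 CPM per kb, and FKBP5 13.9 ± 0.349. FKBP1B (7.99 ± 0.689) and FKBP15 (7.73 ± 0.185 CPM per kb) did not differ beyond their spread, and FKBP1C was lowest with 2.75 ± 0.855. FKBP1A also held places 1 and 5 when the longest coding transcript was used as the length, a choice made after seeing the data. Other places moved with that length. In the mimic group FKBP10 came to place 2 with 70.1 CPM per kb, ahead of FKBP3 with 68.4 and FKBP4 with 67.4. In the mock group FKBP1C came to place 9. Per kb of merged exons, FKBP1A supplied 22.7% ± 0.529 of the summed level of the 10 genes in the mock group and 7.60% ± 0.115 in the mimic group. Without FKBP1A the summed CPM was 1104, 1118 and 1072 in the mimic libraries and 1190, 1122 and 1141 in the mock libraries, against a difference of −121 CPM for FKBP4 alone.

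**Figure D3:**
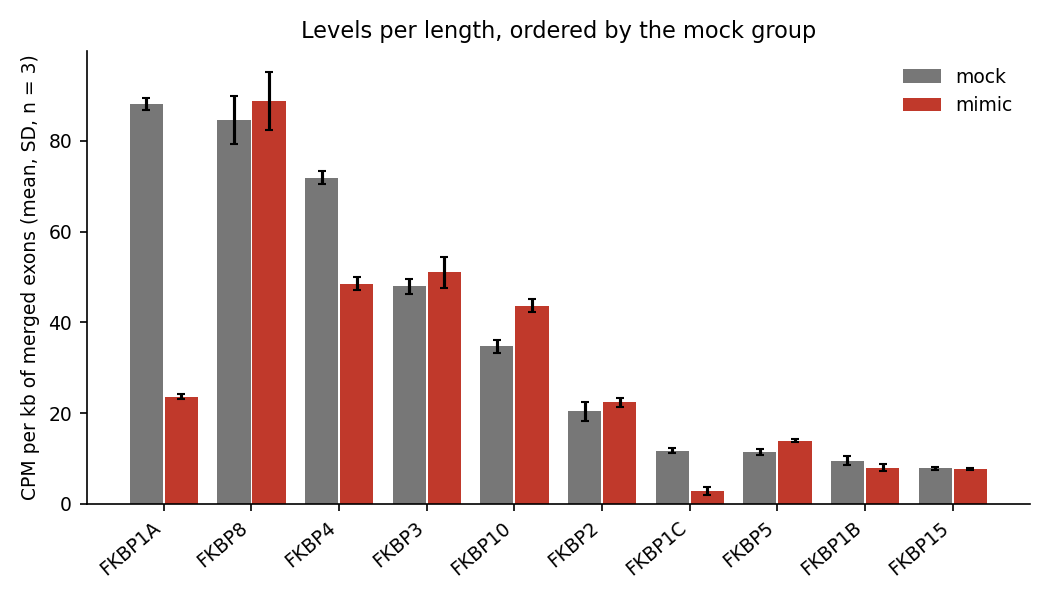
Mean CPM per kb of merged exons in the mock (grey) and mimic (red) groups, with SD over 3 libraries as error bars, ordered by the mock group. FKBP1A goes from the highest bar, 88.1, to 23.6, while FKBP8 stays near 84.6 to 88.7.

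Of the FKBP genes outside the 10, 5 were tested and 0 passed in edgeR's test, 0 at an unadjusted p below 0.05 and 0 in DESeq2, where 1 had no adjusted p. With 13.0% of all genes called, 5 genes are too few to read anything from that 0. FKBP9, of the endoplasmic reticulum, had 53.5, 56.0 and 53.7 CPM in the mimic libraries and 52.8, 49.5 and 53.8 CPM in the mock libraries, and its groups overlapped (log2 fold change 0.07 ± 0.07, adjusted p = 0.614 by edgeR's quasi-likelihood test). FKBP7, FKBP11 and FKBP14, further members of the endoplasmic reticulum, had log2 fold changes of −0.02 ± 0.15, 0.11 ± 0.09 and 0.10 ± 0.09. FKBP6 had 4 counts in all 6 libraries together, and the pseudogenes FKBP4P1 and FKBP9P1 28 and 57, too few to test. No gene with the symbol FKBPL had a count in any library, so FKBPL was not analysed here.

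The drug targets of the FKBP1A complex come first among the lists of partners. Calcineurin is a calcium-dependent phosphatase that activates NFAT transcription factors, and of 12 tested genes of this list 2 rose and 1 fell, against 6.80% and 6.19% of all genes, and the median log2 fold change was −0.05. NFATC4 had 25.6, 29.5 and 22.7 CPM in the mimic libraries and 14.2, 13.3 and 16.6 CPM in the mock libraries. The groups lay apart, and NFATC4 rose by 0.83 ± 0.11 in log2 (adjusted p = 6.14e-08). PPP3R1, the regulatory subunit of calcineurin, fell from 115 ± 3.16 to 95.0 ± 5.80 CPM (adjusted p = 2.31e-04). CABIN1, a calcineurin inhibitor, rose from 124 ± 3.89 to 141 ± 1.20 CPM (adjusted p = 0.0111). That call ended in DESeq2 (0.0574), without mimic replicate 1 (0.0510) and without mock replicate 2 (0.0811).

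mTOR is the growth-controlling kinase that rapamycin blocks through FKBP1A. Of 13 tested genes of its complexes and their regulators RHEB, TSC1, TSC2 and TBC1D7, 2 passed. Both were higher in the mimic group, where 6.80% of all genes rose. AKT1S1, an inhibitory subunit of the rapamycin-sensitive complex, had 126, 131 and 150 CPM in the mimic libraries and 107, 105 and 114 CPM in the mock libraries. It rose by 0.31 ± 0.06 in log2 (adjusted p = 4.31e-05). MLST8, a subunit of both mTOR complexes, rose from 117 ± 4.76 to 131 ± 7.33 CPM (adjusted p = 0.0314). Its call ended in DESeq2 (0.133), without a filter on low counts (0.0502), and without mimic replicate 3 (0.130), mock replicate 1 (0.0579), mock replicate 2 (0.189) or mock replicate 3 (0.0623).

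FKBP1A also binds calcium release channels and type I receptors without drug, and 1 of 6 and 2 of 7 of their tested genes passed, against 13.0% of all genes. Among the channels, ITPR2, an inositol trisphosphate receptor, was the only one to pass, rising from 61.5 ± 4.71 to 83.9 ± 2.39 CPM (adjusted p = 2.79e-07). Its mimic libraries, at 81.2 to 85.8 CPM, all lay above the mock libraries, at 58.5 to 66.9 CPM. Of the type I receptors 1 rose and 1 fell. ACVR1B, a receptor for activin, fell from 64.6 ± 1.84 to 46.9 ± 0.857 CPM (adjusted p = 6.12e-07). TGFBR1, the receptor for TGF-beta, rose from 63.3 ± 3.05 to 73.8 ± 2.75 CPM (adjusted p = 0.0145). The TGFBR1 call ended in DESeq2 (0.0892) and on leaving out mimic replicate 1 (0.0570), mimic replicate 2 (0.0733), mock replicate 1 (0.108) or mock replicate 3 (0.0652).

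The next lists hold partners of the HSP90-bound members. Of 12 tested genes of the HSP90 cycle and steroid receptors, AHSA1, an activator of the HSP90 ATPase, was the only one to pass, against 13.0% of all genes, rising from 165 ± 12.9 to 185 ± 6.88 CPM (adjusted p = 0.0241). That call ended in DESeq2 (0.116) and on leaving out mimic replicate 1 (0.110), mock replicate 2 (0.0514) or mock replicate 3 (0.266). Among 7 glucocorticoid-induced genes 2 passed. TSC22D3 rose from 57.7 ± 2.42 to 67.9 ± 5.65 CPM and the kinase gene SGK1 fell from 15.5 ± 1.99 to 11.8 ± 0.398 CPM (adjusted p = 0.0133 and 0.0283). The TSC22D3 call ended in DESeq2 (0.0918) and on leaving out mimic replicate 1 (0.150), mock replicate 1 (0.0632) or mock replicate 3 (0.0834). The SGK1 call ended in DESeq2 (0.146) and on leaving out mimic replicate 1 (0.111), mimic replicate 2 (0.0571) or mock replicate 1 (0.260).

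In the lists around FKBP10 and FKBP8, 2 of 9 and 1 of 7 tested genes passed, all higher in the mimic group, where 6.80% of all genes rose. P4HB, the disulfide isomerase that is also a subunit of collagen prolyl hydroxylase, had 793, 798 and 838 CPM in the mimic libraries and 654, 624 and 635 CPM in the mock libraries. It rose by 0.34 ± 0.04 in log2 (adjusted p = 7.66e-09). PLOD1, a lysyl hydroxylase of collagen, rose from 143 ± 6.05 to 164 ± 7.76 CPM (adjusted p = 0.00736), a call that ended on leaving out mimic replicate 2 (0.0552) or mock replicate 2 (0.0843). BNIP3, a mitophagy receptor, rose from 24.4 ± 3.37 to 31.0 ± 2.50 CPM (adjusted p = 0.0119). The BNIP3 call ended in DESeq2 (0.0867) and on leaving out mimic replicate 1 (0.0566), mimic replicate 2 (0.0713), mock replicate 2 (0.0591) or mock replicate 3 (0.123).

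Prolyl isomerases of the other families are the cyclophilins, which bind cyclosporin, and the parvulins. The list of these genes also holds PTPA, which belongs to neither family. Of 20 tested genes in this list 5 fell and 1 rose, where 6.19% of all genes fell and 6.80% rose, and the median log2 fold change was −0.01. PPIL1, a cyclophilin of the spliceosome, rose from 97.0 ± 4.69 to 119 ± 2.77 CPM (adjusted p = 1e-04). The parvulin PIN4 fell from 60.4 ± 0.699 to 49.3 ± 1.93 CPM (adjusted p = 0.00172). PPIB, the cyclophilin of the endoplasmic reticulum, fell from 312 ± 11.0 to 279 ± 4.83 CPM (adjusted p = 0.0109), a call that ended on leaving out mimic replicate 1 (0.0732), mock replicate 1 (0.0913) or mock replicate 3 (0.0623). PTPA, an activator of protein phosphatase 2A with prolyl isomerase activity, fell from 128 ± 6.26 to 112 ± 6.72 CPM (adjusted p = 0.0122). The PTPA call ended in DESeq2 (0.0628) and on leaving out mimic replicate 1 (0.0752), mock replicate 1 (0.0885) or mock replicate 3 (0.0793). The p-values are from edgeR's quasi-likelihood test unless another is named.

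**Figure D4:**
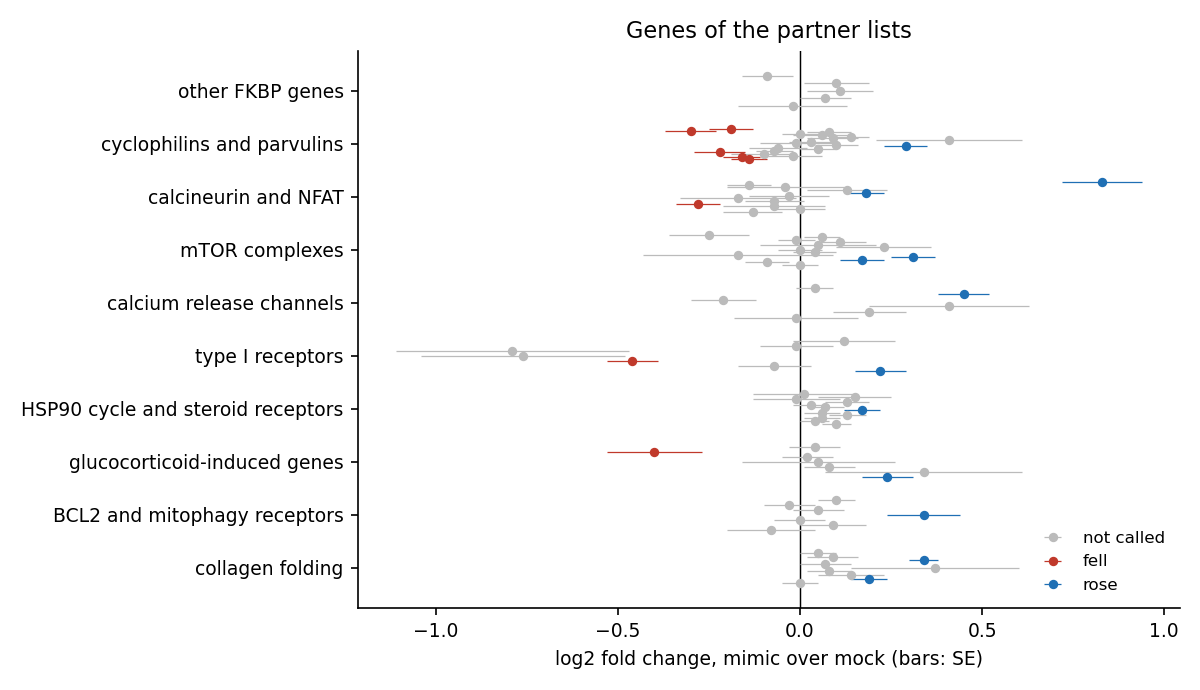
Log2 fold change, mimic over mock, of every tested gene in 10 lists around the FKBP family, with standard errors as bars; blue genes rose, red genes fell and grey genes did not pass. The largest called change is that of NFATC4, 0.83, and no gene of these lists that passed fell by as much as FKBP1A.

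The genes with the profile most like FKBP1A over the 6 libraries, by Euclidean distance between centred log2 CPM, were NUDT1, AGPAT5, HSPB8, RGS10 and SPRYD3. Their distances were 0.69, 0.85, 0.88, 0.99 and 1.12, and FKBP1C, left out of the search as an FKBP gene, lay at 0.60. With 3 mimic and 3 mock libraries, this distance largely reflects the difference between the groups that was used to choose the family. The search therefore returned other genes that were lower in the mimic group, with log2 fold changes from −1.44 for NUDT1 to −1.02 for SPRYD3. NUDT1, which clears oxidised nucleotides, had a mean of 13.3 ± 3.26 CPM in the mimic group and 36.2 ± 1.97 CPM in the mock group. Within the family FKBP4 was next nearest at 1.63.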

How the data were processed

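Each library's deposited table holds raw counts, whole numbers per Ensembl gene that the authors had not normalized. STAR, edgeR and hg19 appear in the submitters' processing notes. The counting program is not stated, nor are its annotation and strand setting. Genes missing from a library's table were set to 0, and 25141 of 26613 IDs could be given a symbol.

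Genes were filtered with edgeR's filterByExpr, scaled with TMM factors (0.994 to 1.006) and tested with edgeR's quasi-likelihood test (robust, with group as the single term). It is two-sided, with Benjamini-Hochberg adjustment over 15607 genes and a threshold of 0.05, and was tested on simulated data. Each SE was derived from the log2 fold change and its test statistic. R 4.3.3, edgeR 4.0.16, DESeq2 1.42.0 and Biopython 1.88 were used. At this depth 3 counts equal 0.392 to 0.493 CPM, and molecules could not be told from PCR copies.

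Sequence matches, lengths and overlaps used GENCODE release 29 (GRCh38), which is not the build of the counts. The members and lists were chosen with earlier results of these data known. Named were the members, the other FKBP genes and up to 4 changed genes per list by smallest p (otherwise the 2 most abundant). Overlapping genes that were tested were also named (for FKBP1A all), as were the 5 genes nearest FKBP1A with at least 5 CPM. Alternatives were DESeq2, other scalings and filters, a replicate block, summed copies and leaving out each library. A tested gene of the list of other FKBP genes is counted there but not reported here.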

Additional observations from a re-analysis of the deposited data

How the results depend on the processing

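All 10 FKBP genes kept their direction and their side of the threshold under every setting run, 13 or 14 per gene. The same 3 members fell and the same 2 rose in each. In the main test 13.0% of all genes passed. The family was chosen on this comparison and every setting reused the same libraries, so nothing is read from these counts. The FKBP1C log2 fold change ranged from −2.35 without mimic replicate 2 to −1.87 without mimic replicate 1. The lists around the family, 98 tested genes with 12 risen and 8 fallen, lost calls under some settings, as did all genes. Under DESeq2's Wald test 6 rose and 4 fell, while calls over all genes went from 2027 to 1018, with 4539 genes given no adjusted p. Leaving out 1 library gave 7 to 14 risen and 4 to 8 fallen genes, the lowest being 7 risen without any of mimic 1, mock 2 and mock 3, taken singly, and 4 fallen without mimic 1 or mock 1. Without mock 3, 5 fell. Over all genes 1302 to 2061 were called with 1 library left out. Fewer samples were fitted there, and the cause under DESeq2 was not tested. The replicate block gave 14 risen and 7 fallen list genes and left the FKBP1A log2 fold change at −1.90. Same-numbered libraries deviated together with correlations of 0.179, −0.167 and −0.069 over 7443 genes, and only the libraries numbered 1 correlated best with their own number, so the numbers were not taken as pairs. The count of members with a seed match was 0 for the 7 letters in the longest 3′ UTR. For the 6 letters of bases 2 to 7 it was 1 in the longest 3′ UTR, 1 in any 3′ UTR, 1 in the coding sequence and 3 anywhere in a transcript. Low counts limit FKBP1C most, with 23 to 41 counts per mimic library.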
